A study of Mus musculus with 15 samples.

Results

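*Clec3a* and 9 other genes of cartilage, *Acan*, *Comp*, *Matn1*, *Matn3*, *Hapln1*, *Chad*, *Col2a1*, *Col9a1* and *Col11a2*, were followed in RNA of the mouse ear. They are 10 of the 21110 genes measured, and each was found by an exact match of its symbol. *Clec3a* had been picked out for its rise in *Socs3* cKO mice at 10 weeks, and the other 9 were set beside it because they are known as cartilage genes. The question was whether the rise of *Clec3a* goes with a rise of other cartilage genes. Since *Clec3a* was chosen from the 10 week comparison, the difference between the genotypes at 10 weeks is given for all 10 genes as a description without a test. The change with age was tested for the 9 other genes and uses the same mice at 10 weeks.

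The study compared wild type C57BL/6 mice with *Socs3* cKO mice on the same background, in which *Socs3* is deleted by way of the keratin 5 promoter, at 2 and 10 weeks after birth. The values described come from ear RNA of 15 libraries, with 4 per genotype at 2 weeks, 3 of the wild type at 10 weeks and 4 of *Socs3* cKO at that age. The study's methods count more wild type mice at each age than there are libraries here. Each library is called a mouse, although the labels do not say that each came from a mouse of its own, and the p-values measure only the spread between these libraries. Keratin 5 is a protein of basal keratinocytes, whereas the genes described here are known as genes of cartilage. The RNA of the ear does not show which cells made their transcripts. The labels give keratinocytes as the source and ear as the tissue, and the RNA was taken from ear specimens, so other cells of the ear were included. Expression is given as FPKM, which is scaled to gene length and to the mapped reads of the library. No depth is given with the values, so no counting error is printed.

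The pinna is held up by elastic cartilage, in which chondrocytes lie in a matrix of thin collagen fibrils and aggrecan. Type II collagen forms the fibrils, type XI collagen sits in their core and type IX collagen coats their surface. Aggrecan binds hyaluronan with the help of link protein and holds water, while cartilage oligomeric matrix protein, matrilins and chondroadherin bridge fibrils, proteoglycans and cells. *Clec3a* encodes a secreted C-type lectin of cartilage, and its nearest relative *Clec3b* encodes tetranectin.

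The sequence before the start of transcription is shown for *Chad* and *Matn3*, because these 2 genes moved in opposite directions at 2 weeks. Sequences of 250 bases were taken from RefSeq (GRCm38.p6, a later build than the mm9 of the expression values), and 7 of the 10 genes had at least 1, with 8 sequences in all since *Col9a1* had 2. *Clec3a*, *Comp* and *Col2a1* were not matched. TATAAA and the SOX words ACAAAG and AACAAT were searched on both strands, and matches are in capitals. The *Chad* sequence lies on chromosome 11 from 94564797 to 94565046, plus strand. The *Matn3* sequence lies on chromosome 12 from 8947679 to 8947928, plus strand.
Chad: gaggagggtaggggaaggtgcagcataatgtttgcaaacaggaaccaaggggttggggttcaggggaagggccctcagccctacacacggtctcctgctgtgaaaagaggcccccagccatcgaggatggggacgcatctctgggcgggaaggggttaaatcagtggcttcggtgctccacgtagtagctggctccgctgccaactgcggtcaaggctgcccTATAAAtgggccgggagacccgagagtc
Matn3: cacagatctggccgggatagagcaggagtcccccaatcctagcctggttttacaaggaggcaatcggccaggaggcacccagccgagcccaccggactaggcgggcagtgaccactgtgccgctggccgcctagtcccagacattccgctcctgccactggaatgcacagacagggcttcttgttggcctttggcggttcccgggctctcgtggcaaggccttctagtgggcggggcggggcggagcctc
*Chad* held TATAAA beginning 28 bases before the start, and *Matn3* held none of the words. TATAAA was found in 2 of the 8 sequences and in 12.4% of all 32851 promoter windows of this length. A SOX word was found in 0 of the 8 and in 24% of all windows. These matches describe the letters of the window only.

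Libraries differed in their make-up, both within and between the groups. The median level of 961 genes with transcripts under 1000 bases, minus that of 3968 genes with transcripts over 4000 bases, ran from -0.85 to -0.61 on the log2 scale in the wild type and from -0.56 to 1.22 in *Socs3* cKO at 2 weeks. In the older mice this balance ranged over 0.26 to 1.22 for the wild type and -0.46 to 0.46 for *Socs3* cKO. *Socs3* cKO replicate 1 at 2 weeks was the highest of its group at 1.22. The transcript of *Clec3a* has 591 bases and that of *Acan* 7355. Genes listed at 0 numbered 1414 to 3176 in the wild type at 10 weeks and 4044 to 4423 elsewhere. Library numbers run in a separate range in each group, so library batch and condition cannot be told apart. *Socs3* itself was measured at 9.71 to 10.3 FPKM in the wild type and 1.25, 9.32, 12.6 and 3.51 FPKM in *Socs3* cKO at 2 weeks, and the older mice had 2.02 to 4.81 and 29.8 to 47.7 FPKM, respectively. A value for the whole gene cannot show the deleted part alone.

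The level of *Clec3a* was higher in *Socs3* cKO at both ages. *Clec3a* lies on the plus strand of chromosome 8 of mm9, from 116941986 to 116949746, with 3 exons. At 2 weeks it was measured at 3.39, 4.84, 5.61 and 3.51 FPKM in the wild type and at 16.6, 14.99, 22.3 and 20.5 FPKM in *Socs3* cKO. The lowest *Socs3* cKO mouse lay above the highest wild type mouse, as in 22.9% of all genes tested. The log2(FC) was 2.09 (SE 0.22, adjusted p = 0.000323, limma). The exact permutation test over the 8 mice gave p = 0.0286, the smallest 2-sided p that 4 mice against 4 allow. With 1 mouse left out the log2(FC) was 1.98 to 2.22. With the trend of each library with the length and GC content of transcripts removed, a choice made once the data had been seen, it was 1.54 (adjusted p = 0.000917). With all 4 groups in one fit it was 2.09 with a wider SE of 0.695 and no longer passed (adjusted p = 0.021).

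At 10 weeks *Clec3a* was measured at 0.784 and 2.01 FPKM and listed at 0 in the 3 wild type mice, and at 32.6, 11.8, 41.2 and 55.4 FPKM in *Socs3* cKO. Every *Socs3* cKO mouse lay above every wild type mouse, as in 31.2% of all genes tested. The ratio of the mean FPKM values of the groups, with the 0 included, was 37.8. On the log2(FPKM + 0.1) scale the difference was 5.75. It depended on the pseudocount, at 4.18 with 1 and 6.92 with 0.01, and it was 4.49 without wild type replicate 3, the mouse listed at 0. In that library 4 of the 10469 genes that reached 1 FPKM in each of the other 14 libraries were also listed at 0. With age, *Clec3a* was 2.93 lower on the log2 scale in the wild type, with every older mouse below every younger one, as in 49.5% of all genes tested. In *Socs3* cKO it was 0.73 higher with age, with overlap. In order of mean level the groups ran from *Socs3* cKO at 10 weeks through *Socs3* cKO at 2 weeks and the wild type at 2 weeks to the wild type at 10 weeks, and only the first pair of neighbours overlapped.

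**Figure D1:**
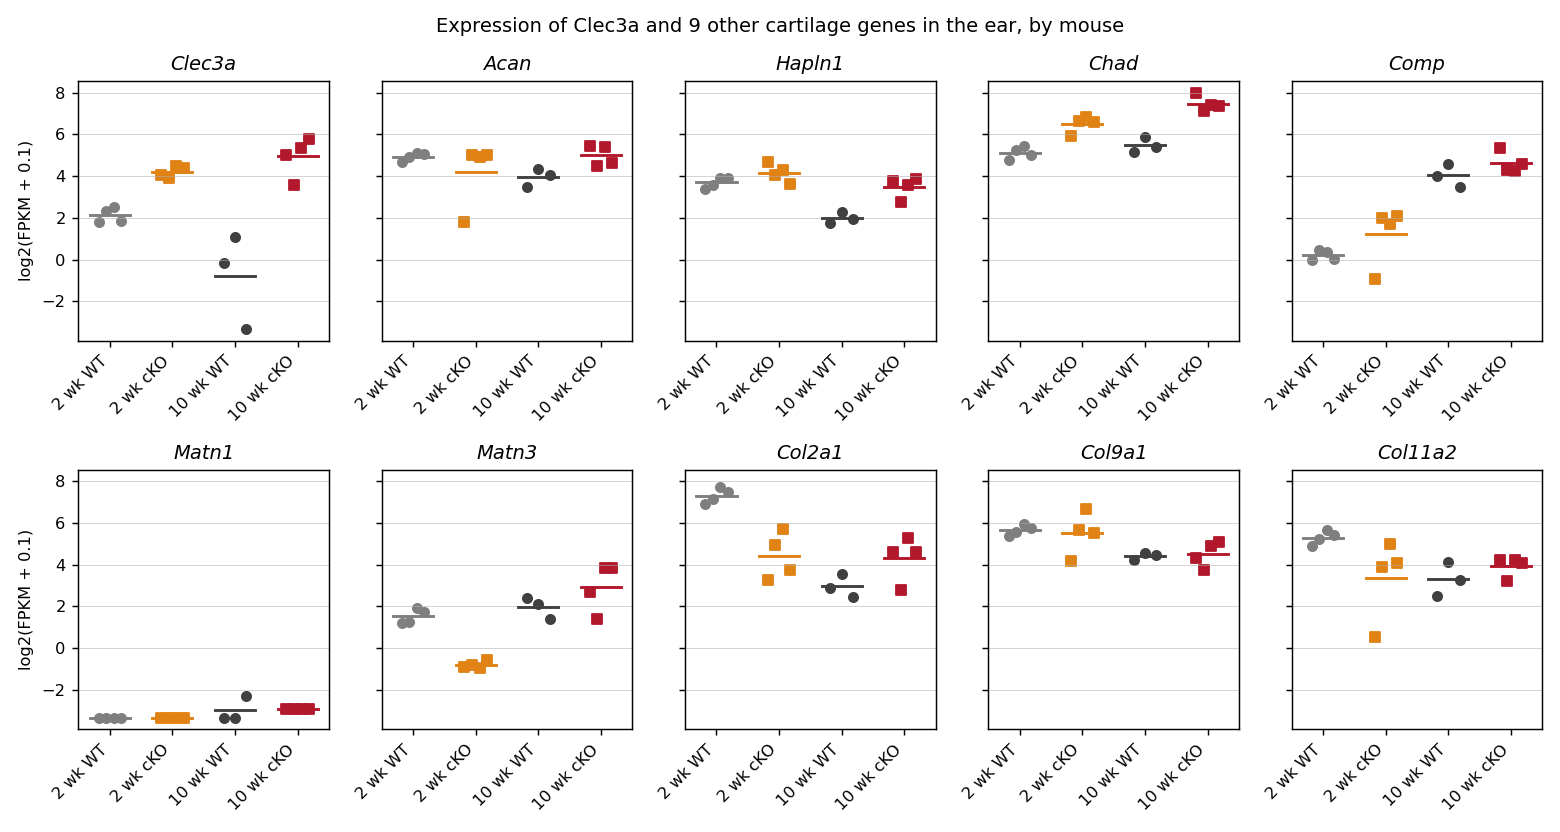
Levels of the 10 genes as log2(FPKM + 0.1) in each of 15 mice (points), with the group mean (bar), for wild type (WT, circles) and *Socs3* cKO (cKO, squares) at 2 and 10 weeks. *Clec3a* and *Chad* are above the wild type in every *Socs3* cKO mouse at both ages, *Matn3* and *Col2a1* are below it at 2 weeks, and *Matn1* is at or near 0 FPKM in every mouse, where 0 FPKM falls at -3.32.

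The other cartilage genes did not move as one at 2 weeks. Of the 9 genes that passed the filter (*Matn1* did not), *Clec3a* and *Chad* were up-regulated and *Matn3* and *Col2a1* were down-regulated, while *Acan*, *Comp*, *Hapln1*, *Col9a1* and *Col11a2* did not pass the test. DEGs were 14.4% of the 13524 genes tested, with 7.24% up-regulated and 7.19% down-regulated. The median log2 difference of the 8 genes other than *Clec3a* was -0.46, against -0.21 for all genes tested.

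The gene of type II collagen was lower in *Socs3* cKO at 2 weeks. *Col2a1* (chromosome 15, 97806033 to 97835155, 54 exons) was measured at 119, 141, 212 and 179 FPKM in the wild type and at 9.47, 31.1, 52.4 and 13.4 FPKM in *Socs3* cKO. The highest of the *Socs3* cKO values was under the lowest wild type value, which was true of 33.2% of all genes tested. The log2(FC) was -2.89 (SE 0.50, adjusted p = 0.00367; exact permutation p = 0.0286). With the length and GC trend removed it was -1.04 (adjusted p = 0.068) and no longer passed. It also did not pass when any 1 wild type mouse or *Socs3* cKO replicate 4 was left out, with adjusted p-values of 0.011 to 0.015, where the log2(FC) was -3.03 to -2.67.

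The genes of the collagens that join type II in the fibril did not pass the test. *Col11a2* (chromosome 17, 34176382 to 34203630, 66 exons), a chain of type XI collagen, was measured at 29.8, 37.1, 51.1 and 42.7 FPKM in the wild type and at 1.35, 14.6, 31.7 and 16.6 FPKM in *Socs3* cKO. The groups overlapped through a single mouse, *Socs3* cKO replicate 3, and the log2 difference was -1.94 (SE 0.83, adjusted p = 0.082). It was -0.99 without *Socs3* cKO replicate 1, and -0.00092 with the length and GC trend removed. *Col9a1* (chromosome 1, 24184449 to 24259577, 38 exons), a chain of type IX collagen, was measured at 41.0, 47.9, 61.2 and 54.5 FPKM in the wild type and at 18.1, 49.9, 100.8 and 45.8 FPKM in *Socs3* cKO. Its groups overlapped, and the difference of -0.16 (SE 0.45, adjusted p = 0.77) changed sign to 0.28 without *Socs3* cKO replicate 1.

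The genes of aggrecan and link protein, the partners on hyaluronan, did not pass either. *Acan* (chromosome 7, 86198369 to 86259985, 17 exons) was measured at 25.1, 29.7, 34.4 and 33.5 FPKM in the wild type and at 3.40, 31.8, 29.8 and 32.2 FPKM in *Socs3* cKO. Only *Socs3* cKO replicate 1 lay below the wild type range. The log2 difference was -0.75 (SE 0.68, adjusted p = 0.37), and 0.038 without that mouse. *Hapln1*, the gene of link protein (chromosome 13, 89680241 to 89751437, 5 exons), was measured at 10.4, 11.8, 14.8 and 14.7 FPKM in the wild type and at 25.5, 16.5, 19.7 and 12.2 FPKM in *Socs3* cKO. *Socs3* cKO replicate 4 lay inside the wild type range, and the difference of 0.47 (SE 0.24) had an adjusted p of 0.13.

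The genes of the bridging proteins went different ways. *Chad*, the gene of chondroadherin, a leucine-rich protein that binds collagen and integrins (chromosome 11, 94426361 to 94430441, 4 exons), was measured at 27.3, 37.8, 42.7 and 31.8 FPKM in the wild type and at 60.2, 100.2, 112 and 94.9 FPKM in *Socs3* cKO. The lowest of these exceeded the highest wild type value, which was true of 22.9% of all genes tested. The log2(FC) of *Chad* was 1.38 (SE 0.23, adjusted p = 0.00283; exact permutation p = 0.0286). With wild type replicate 1, 2 or 4 or *Socs3* cKO replicate 3 or 4 left out, it was 1.27 to 1.42 with adjusted p-values of 0.010 to 0.013, just past the threshold of 0.01.

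*Matn3*, the gene of a matrilin that links collagens and proteoglycans into filaments (chromosome 12, 8954735 to 8978834, 8 exons), was measured at 2.21, 2.26, 3.69 and 3.27 FPKM in the wild type and at 0.442, 0.478, 0.419 and 0.574 FPKM in *Socs3* cKO. Each *Socs3* cKO mouse was below 1 FPKM and each wild type mouse above 2. The log2(FC) was -2.33 (SE 0.22, adjusted p = 0.000246; exact permutation p = 0.0286), and it was -2.47 with the length and GC trend removed. *Matn1*, the other matrilin of the group (chromosome 4, 130500300 to 130511390, 8 exons), was listed at 0 in all 8 mice at 2 weeks and did not exceed 0.10 FPKM at 10 weeks.

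*Comp*, the gene of cartilage oligomeric matrix protein (chromosome 8, 72897447 to 72905964, 20 exons), was measured at 0.90, 1.26, 1.16 and 0.93 FPKM in the wild type and at 0.423, 3.86, 3.16 and 4.18 FPKM in *Socs3* cKO. In *Socs3* cKO 3 mice lay above the wild type range and replicate 1 lay below it. The log2 difference was 1.01 (SE 0.63, adjusted p = 0.20). Without *Socs3* cKO replicate 1 it was 1.72 (adjusted p = 0.000107), and with the length and GC trend removed it was 2.24 (adjusted p = 0.000205). *Socs3* cKO replicate 1 was the lowest mouse of its group in *Acan*, *Comp*, *Chad*, *Col2a1*, *Col9a1* and *Col11a2*, and the highest in *Hapln1*.

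**Figure D2:**
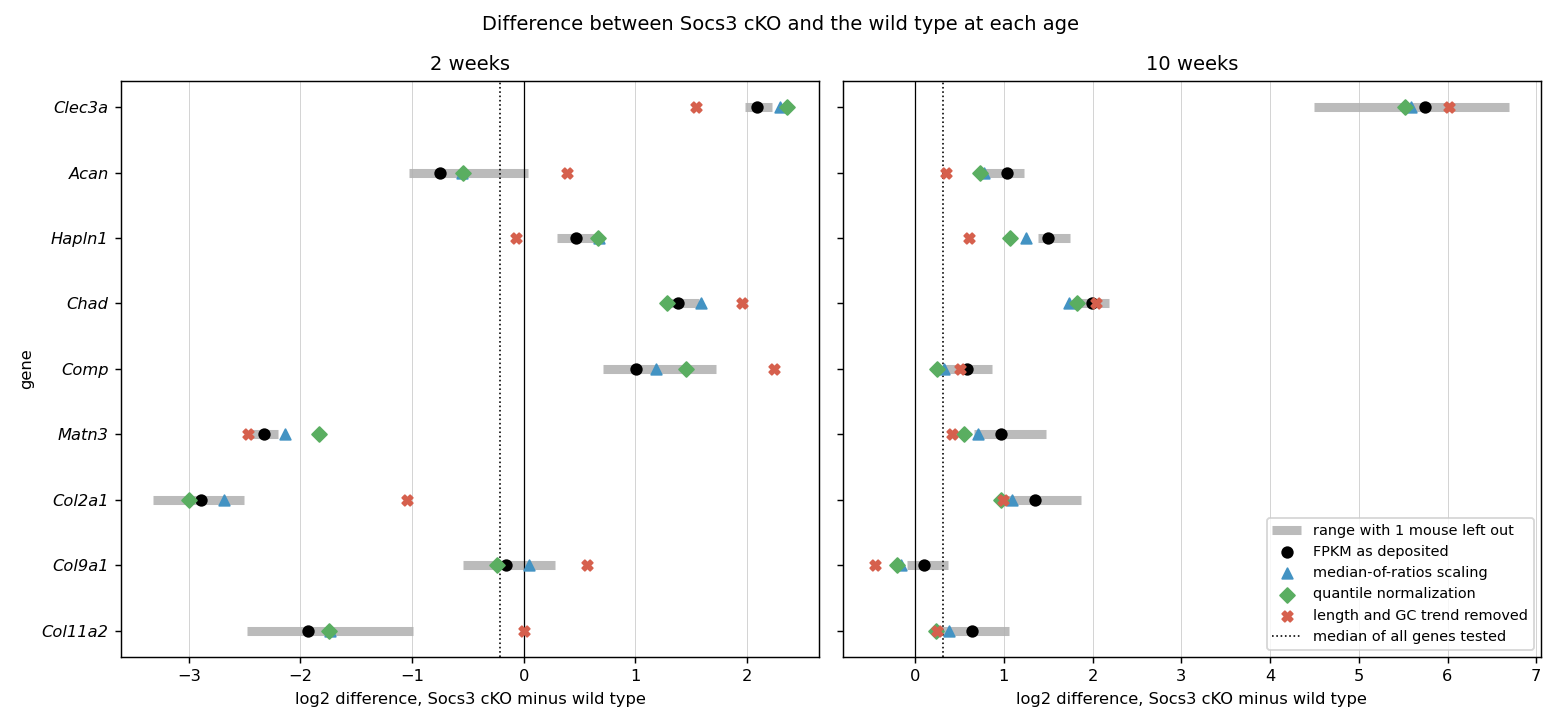
Log2 difference, *Socs3* cKO minus wild type, of the 9 genes that passed the filter, at 2 weeks (left) and 10 weeks (right). Black circles give the deposited FPKM, grey bars the range with 1 mouse left out, other symbols 3 other scalings of the libraries, and the dotted line the median of all genes tested. *Clec3a* and *Chad* lie to the right under every scaling at both ages, while *Acan*, *Hapln1* and *Col9a1* cross 0 at 2 weeks and *Col9a1* crosses it at 10 weeks.

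At 10 weeks each of the 9 genes was higher on average in *Socs3* cKO. The differences on the log2 scale were 5.75 in *Clec3a*, 1.99 in *Chad*, 1.504 in *Hapln1*, 1.35 in *Col2a1*, 1.03 in *Acan*, 0.97 in *Matn3*, 0.64 in *Col11a2*, 0.58 in *Comp* and 0.11 in *Col9a1*. *Clec3a*, *Chad*, *Hapln1* and *Acan* were higher in every *Socs3* cKO mouse than in every wild type mouse, as were 31.2% of the 13105 genes tested, and none of the 9 was lower in every mouse, as 11.1% of all genes were. The median of the 8 genes other than *Clec3a* was 1.0, against 0.31 for all genes.

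The direction at 10 weeks was read against the shift of all genes, since of the DEGs, which were 14.9% of the genes tested, 83.7% were up-regulated with the FPKM as deposited, and 62.4%, 53.6% and 59.0% after median-of-ratios scaling, quantile normalization and removal of the length and GC trend. The median of the 8 genes was then 0.74, 0.64 and 0.46, against 0.054, -0.029 and -0.085 for all genes. *Col9a1* was negative in each of these alternatives, at -0.15, -0.21 and -0.45, and the other 7 stayed positive.

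*Chad* was the most abundant of the 10 at 10 weeks. It was measured at 35.5, 57.9 and 42.6 FPKM in the wild type and at 253.9, 138, 169 and 165 FPKM in *Socs3* cKO. The lowest *Socs3* cKO mouse at 138 FPKM lay far above the highest wild type mouse at 57.9 FPKM, and the log2 difference was 1.73 to 2.04 under the 3 other scalings. *Hapln1* was measured at 3.30, 4.68 and 3.71 FPKM in the wild type and at 13.4, 6.70, 11.9 and 14.3 FPKM in *Socs3* cKO. *Acan* was measured at 11.02, 20.4 and 16.4 FPKM in the wild type and at 42.9, 22.5, 42.5 and 24.5 FPKM in *Socs3* cKO. For *Acan* the gap between the groups was narrow, with 22.5 FPKM against 20.4 FPKM.

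*Matn3*, *Comp* and the genes of the collagens overlapped between the groups at 10 weeks. *Col2a1* was measured at 7.38, 11.7 and 5.42 FPKM in the wild type and at 24.6, 6.73, 38.8 and 24.6 FPKM in *Socs3* cKO. *Matn3* was measured at 5.25, 4.20 and 2.54 FPKM in the wild type and at 6.32, 2.58, 14.1 and 14.3 FPKM in *Socs3* cKO. In both genes *Socs3* cKO replicate 2 lay inside the wild type range and the other 3 mice above it. *Comp* was measured at 15.9, 24.0 and 11.2 FPKM in the wild type and at 40.9, 19.2, 19.1 and 23.5 FPKM in *Socs3* cKO, so that a single mouse, replicate 1, exceeded the wild type. *Col11a2* was measured at 5.50, 17.5 and 9.47 FPKM in the wild type and at 18.5, 9.16, 18.8 and 16.7 FPKM in *Socs3* cKO. *Col9a1* was measured at 18.5, 23.6 and 22.2 FPKM in the wild type and at 20.2, 13.3, 30.0 and 34.4 FPKM in *Socs3* cKO, with mice on both sides of the wild type range.

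*Socs3* cKO replicate 2 at 10 weeks had the lowest level of its group in *Clec3a*, *Acan*, *Matn3*, *Hapln1*, *Chad*, *Col2a1*, *Col9a1* and *Col11a2*. Its balance of short and long transcripts was -0.43, with -0.34, -0.46 and 0.46 in replicates 1, 3 and 4. Why this mouse was lowest was not tested. Values of bulk tissue do not separate the number of chondrocytes from the RNA of each, nor either of these from the make-up of the sample or library.

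In the wild type, the transcripts of type II collagen and link protein fell with age and that of *Comp* rose. *Col2a1* fell by 4.33 on the log2 scale (SE 0.59, adjusted p = 6.86e-05), from a mean of 163 FPKM at 2 weeks to 8.18 FPKM at 10 weeks. *Hapln1* fell by 1.71 (SE 0.28, adjusted p = 0.000306). *Comp* rose by 3.82 (SE 0.57, adjusted p = 0.00015), from a mean of 1.06 to 17.1 FPKM. These were 3 of the 8 genes tested, against 25.5% of all 13937 genes, 6.18% of which rose and 19.4% fell. Of the others, *Col9a1* was at -1.24 (adjusted p = 0.029), *Col11a2* at -2.01 (adjusted p = 0.038) and *Acan* at -0.97 (adjusted p = 0.19). In these 3, as in *Col2a1* and *Hapln1*, no mice of the 2 ages overlapped and the older were lower, which held for 49.5% of all genes. *Matn3* was at 0.44 and *Chad* at 0.37, both with overlap. Libraries weigh on these values, since the share of rising genes among all DEGs of age was 24.2% as deposited and 47.6%, 49.7% and 50% under median-of-ratios scaling, quantile normalization and removal of the length and GC trend. The 3 calls stood under each of these, at -2.87 for *Col2a1*, -1.25 for *Hapln1* and 4.67 for *Comp* with the trend removed. *Col9a1*, *Col11a2* and *Acan* were then at -0.26, -0.48 and 0.34. The median of the 8 genes was -1.11 as deposited and 0.044 with the trend removed, against -0.44 and 0.092 for all genes.

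In *Socs3* cKO, *Comp* and *Matn3* rose with age. *Comp* rose by 3.40 (SE 0.53, adjusted p = 0.00101), from a mean of 2.91 to 25.7 FPKM, and *Matn3* by 3.74 (SE 0.44, adjusted p = 9.64e-05), from 0.478 to 9.31 FPKM. No mice of the 2 ages overlapped in either gene. Of all genes, 3.54% were DEGs of age in *Socs3* cKO, 2.01% rising and 1.53% falling. *Chad* was at 0.98 (adjusted p = 0.018), with every mouse at 10 weeks above every mouse at 2 weeks, which held for 7.71% of all genes, while 6.79% had every mouse lower. *Col2a1* was at -0.097 (SE 0.54, adjusted p = 0.92), and *Acan*, *Hapln1*, *Col9a1* and *Col11a2* also overlapped and did not pass. The comparisons with age share their mice with the comparisons between genotypes.

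The make-up of the 10 genes differed between the groups. *Col2a1* was the most abundant of them in the wild type at 2 weeks, with 47.7% of their summed mean FPKM, and took 10.5% in *Socs3* cKO at 2 weeks, 6.41% in the wild type at 10 weeks and 6.56% in *Socs3* cKO at 10 weeks. *Chad* took 10.2% in the wild type at 2 weeks and was the most abundant in the other groups, with 36.3%, 35.5% and 50.4%. *Clec3a* took 1.27% in the wild type at 2 weeks and 0.73% at 10 weeks, against 7.36% and 9.78% in *Socs3* cKO, where it came next to *Chad* at 10 weeks. The summed mean FPKM was 340.8, 253, 128 and 360.4 for the younger wild type, the younger *Socs3* cKO, the older wild type and the older *Socs3* cKO mice. Shares were not corrected for the balance of short and long transcripts, which differed between the groups. The transcript of *Col2a1* has 5104 bases, that of *Chad* 1680 and that of *Clec3a* 591. With the length and GC trend removed, the genotype difference at 2 weeks was -1.04 in *Col2a1* in place of -2.89. It was 1.96 in place of 1.38 in *Chad* and 1.54 in place of 2.09 in *Clec3a*.

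**Figure D3:**
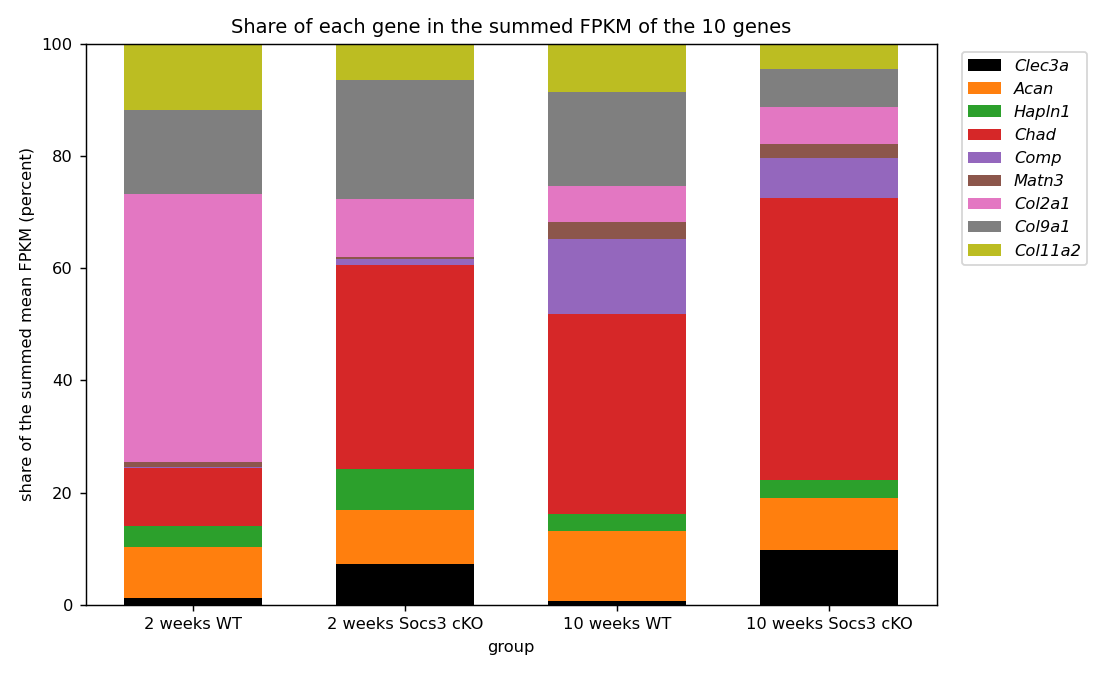
Share of each gene in the summed mean FPKM of the 10 genes, in percent, for each group (*Matn1* is too low to be seen). *Col2a1* takes 47.7% in the wild type at 2 weeks and 6.41% to 10.5% elsewhere, and *Clec3a* takes 7.36% and 9.78% in *Socs3* cKO against 1.27% and 0.73% in the wild type. The shares are not corrected for the balance of short and long transcripts, which differed between the groups.

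Within a mouse, the mean of the 9 other genes was subtracted from *Clec3a* on the log2(FPKM + 0.1) scale. In this difference a scaling between libraries cancels only for values well above the pseudocount of 0.1. The balance of transcript lengths of a library does not cancel. *Clec3a* lay below the mean of the 9 other genes in each of the 7 wild type mice and above it in each of the 8 *Socs3* cKO mice. That mean includes *Matn1*, which was at or near 0 FPKM in every mouse and lowers it. In *Socs3* cKO the smallest margin of *Clec3a* above the mean was 0.80 at 2 weeks and 0.59 at 10 weeks. With *Matn1* left out of the mean, *Clec3a* lay below it in *Socs3* cKO replicate 2 at 10 weeks. In replicate 2 at 2 weeks it lay at or just under that mean, and in the other *Socs3* cKO mice it stayed above. In the younger mice *Clec3a* minus the mean of all 9 other genes was -1.26 ± 0.25 (SD, n = 4) for the wild type, while *Socs3* cKO stood at 1.41 ± 0.69 (SD, n = 4). In the older wild type mice the values were -2.75, -2.05 and -6.01, the last in the mouse with *Clec3a* listed at 0, where the pseudocount set its level. The older *Socs3* cKO mice stood at 1.24 ± 0.54 (SD, n = 4). The difference between genotypes was 2.67 at 2 weeks and 4.83 at 10 weeks, and 1.30 and 5.46 with the length and GC trend removed. Relative to *Col2a1*, the FPKM of *Clec3a* was 0.0196 to 0.0344 in the younger wild type mice against 0.426 to 1.76 in the younger *Socs3* cKO mice, and 0 to 0.171 against 1.06 to 2.26 in the older. Relative to *Chad* it was 0.11 to 0.132 against 0.150 to 0.276 in the younger mice, and 0 to 0.0348 against 0.0858 to 0.337 in the older. *Clec3a* was higher in *Socs3* cKO than in the wild type against both genes, without overlap at either age.

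**Figure D4:**
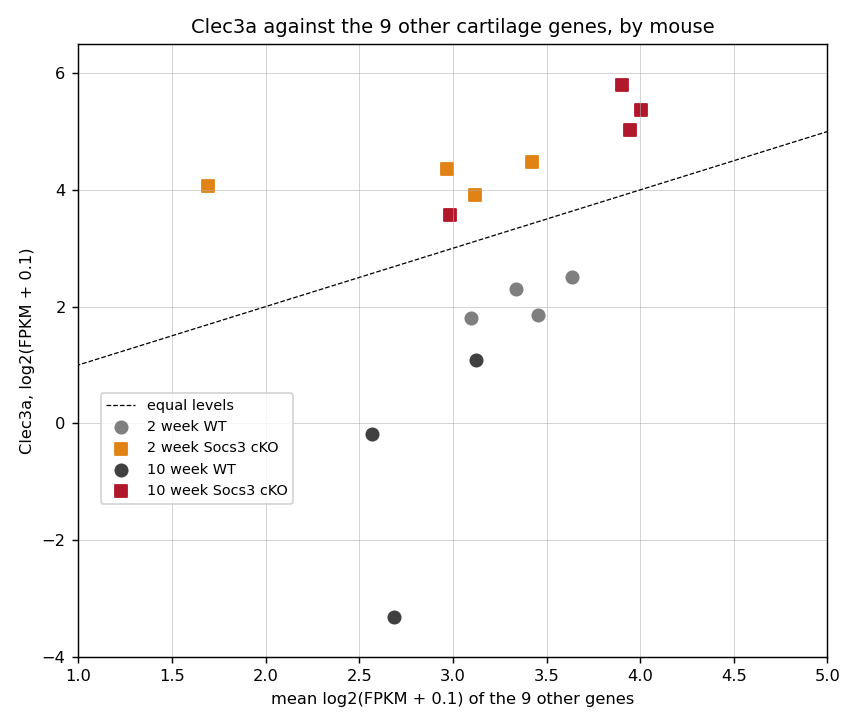
*Clec3a* level (vertical axis) against the mean level of the 9 other genes (horizontal axis), both as log2(FPKM + 0.1), in each of 15 mice, where the dashed line marks equal levels. All 8 *Socs3* cKO mice lie above the line and all 7 wild type mice below it, while the horizontal ranges of wild type and *Socs3* cKO overlap at both ages. The 9 genes include *Matn1*, at or near 0 FPKM in every mouse, which lowers their mean. Without it, *Socs3* cKO replicate 2 at 10 weeks would fall below the line, and replicate 2 at 2 weeks onto it or just under it.

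Across mice, the genes were compared by their deviations from the group mean of log2(FPKM + 0.1), over 15 mice that share their libraries, as a description. *Matn3* was most like *Clec3a* (Pearson's r = 0.64, Spearman's rho = 0.75), and r was 0.87 without wild type replicates 2 and 3 at 10 weeks, the mice farthest from the median of *Clec3a*. *Col2a1* followed with r = 0.53 and rho = 0.57, then *Hapln1* with r = 0.40 and *Chad* with r = 0.35. *Acan* had the lowest r of the 8 genes that passed the filter at 0.12. The median r of the 8 was 0.33, against 0.15 over all 13936 genes ranked, whose upper quartile was 0.37. Without wild type replicate 3 at 10 weeks the median r was 0.57. The 10 genes did not form a single block. *Acan* deviated together with *Col11a2* (r = 0.94) and *Comp* (r = 0.90), *Col9a1* with *Col11a2* (r = 0.88) and *Col2a1* (r = 0.84), while *Hapln1* and *Comp* stood at r = -0.28. The deviations of *Acan*, *Comp* and *Col11a2* were widest in *Socs3* cKO replicate 1 at 2 weeks, at -2.37, -2.15 and -2.83.

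The genes most like *Clec3a* among all genes ranked were others. By deviations these were *Slc41a2* (r = 0.91), *Rhoa* (r = 0.91), *Zfp383* (r = 0.91), *Parg* (r = 0.90) and *Slc22a5* (r = 0.90). Without wild type replicates 2 and 3 at 10 weeks their r was 0.62 to 0.79. Over the values of all 15 mice, in which the differences between the groups count as well, they were *Golph3* (r = 0.97), *Dsel* (r = 0.97), *Leprot* (r = 0.97), *March7* (r = 0.96) and *Bmp5* (r = 0.96). *Matn3* ranked 815th by deviations and *Hapln1* 1531st over all values, the highest of the 8 in each.

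Beyond the 10 genes, 39 further cartilage genes were compared in 5 lists, and 34 of them were tested at each age. At 2 weeks 4 rose and 2 fell, and at 10 weeks 6 rose and 1 fell, against the 7.24% and 7.19% of all genes given above and 12.5% and 2.43% at 10 weeks. The median log2 difference over the 34 genes was -0.35 at 2 weeks and 0.49 at 10 weeks, against -0.21 and 0.31 for all genes.

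At 2 weeks the 4 genes that rose belonged to the list of 15 other matrix and secreted proteins. *Ucma*, the gene of a secreted protein of cartilage rich in gamma-carboxyglutamate, was measured at 2.58, 2.96, 4.27 and 2.63 FPKM in the wild type and at 20.6, 16.03, 25.5 and 22.7 FPKM in *Socs3* cKO (log2(FC) 2.74, SE 0.22, adjusted p = 0.000104). *3110079O15Rik*, also known as *Snorc*, the gene of a small proteoglycan of chondrocytes, was measured at 24.9, 26.3, 42.5 and 30.2 FPKM in the wild type and at 158, 67.2, 184 and 123 FPKM in *Socs3* cKO (log2(FC) 2.04, adjusted p = 0.00242). *Mgp*, the gene of matrix Gla protein, an inhibitor of calcification that other tissues also make, had a log2(FC) of 1.38 (adjusted p = 0.00764). *Cilp*, of cartilage intermediate layer protein, named here after its values were seen, had a log2(FC) of 1.19 (adjusted p = 0.00594). In these 4 genes every *Socs3* cKO mouse lay above every wild type mouse, as in 22.9% of all genes tested. Of the 5 transcription factors tested, *Sox9*, the master regulator of chondrocytes, fell from 37.0 to 42.1 FPKM in the wild type to 9.12 to 16.4 FPKM in *Socs3* cKO (log2(FC) -1.53, SE 0.19, adjusted p = 0.000841). *Runx2*, which drives hypertrophy and bone formation, was at 1.77 to 2.40 FPKM and 0.389 to 1.18 FPKM (log2(FC) -1.66, adjusted p = 0.00491). Of the 5 other collagens, the 4 growth plate genes tested and the 5 genes of chondroitin sulfate, 0 passed in limma, while 3, 3 and 4 had an unadjusted p under 0.05, 1 of each list higher and the rest lower.

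These counts at 2 weeks depended on the libraries. Without *Socs3* cKO replicate 1, 9 genes rose and 6 fell, and 9 and 5 did so with the length and GC trend removed. Without wild type replicate 1, 2 or 4 a single gene rose and a single gene fell, without wild type replicate 3 or *Socs3* cKO replicate 3 the counts were 2 and 1, without *Socs3* cKO replicate 4 a single gene fell, and without *Socs3* cKO replicate 2, 4 genes fell. With the trend removed *Mgp* no longer passed, at 0.74, while *Ucma* at 2.32, *3110079O15Rik* at 2.55, *Cilp* at 2.08, *Sox9* at -1.09 and *Runx2* at -1.02 did.

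At 10 weeks *Col10a1*, the gene of type X collagen, which hypertrophic chondrocytes make, was measured at 1.47, 1.499 and 0.944 FPKM in the wild type and at 17.4, 6.07, 12.2 and 13.0 FPKM in *Socs3* cKO (log2(FC) 3.06, SE 0.34, adjusted p = 0.00038). *Cilp* was measured at 24.3, 33.8 and 15.6 FPKM in the wild type and at 149, 134, 105 and 139 FPKM in *Socs3* cKO (log2(FC) 2.48, SE 0.25, adjusted p = 0.000251). In both genes every *Socs3* cKO mouse lay above every wild type mouse, as in 31.2% of all genes tested. Both passed with the length and GC trend removed, at 2.54 and 1.92. *Xylt1*, of an enzyme that starts chondroitin sulfate chains, rose by 1.96 (adjusted p = 0.0032), *Sox6*, a partner of *Sox9*, by 1.74 (adjusted p = 0.00401), *Trps1*, a zinc finger factor of chondrocytes, by 1.59 (adjusted p = 0.00111) and *Prelp*, of a leucine-rich matrix protein, by 1.40 (adjusted p = 0.00428). *Sox9* fell again, from 16.7, 24.9 and 24.2 FPKM to 12.4, 7.65, 12.4 and 8.37 FPKM (log2(FC) -1.11, SE 0.24, adjusted p = 0.00704), and by 1.77 with the trend removed. *Sox6*, *Trps1* and *Prelp* did not pass with the trend removed, at 0.85, 0.61 and 0.92. Without wild type replicate 1 or 3, 3 genes rose and 0 fell. Without *Socs3* cKO replicate 1 or 2, 0 fell, and without *Socs3* cKO replicate 4, 2 fell.

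**Figure D5:**
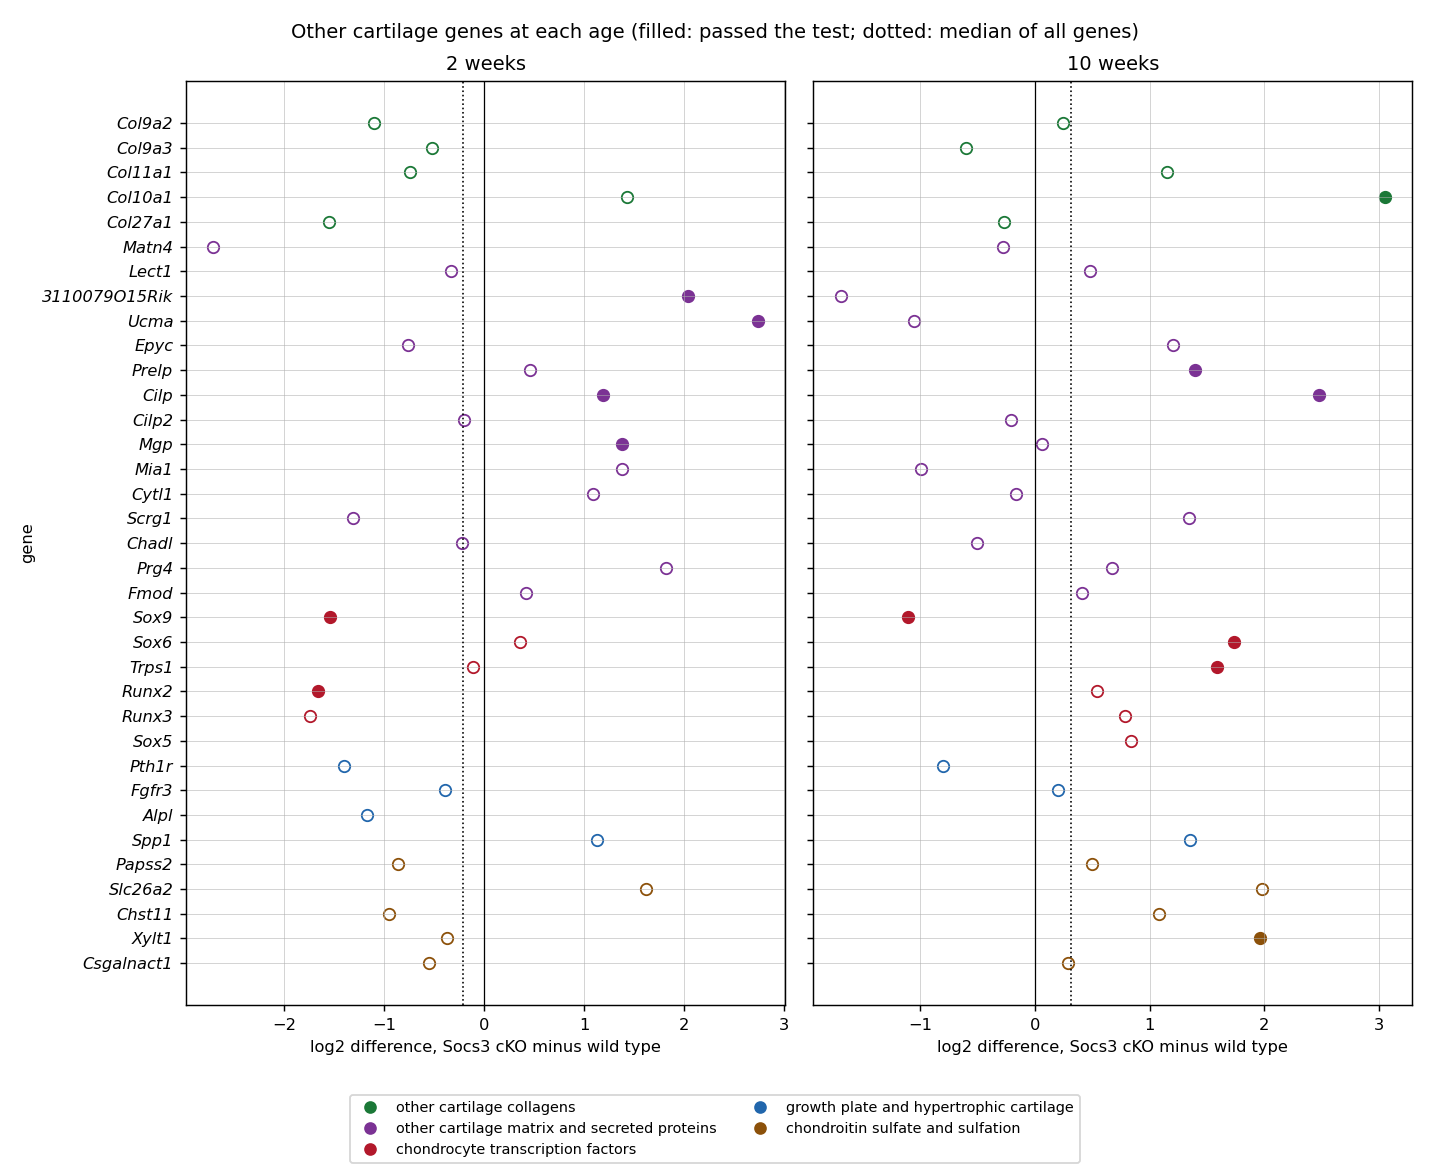
Log2 difference, *Socs3* cKO minus wild type, of the further cartilage genes tested at 2 weeks (left) or 10 weeks (right), coloured by list, filled where the gene passed the test (adjusted p below 0.01 and a difference of at least 1). The dotted line is the median of all genes. *Ucma* at 2.74 and *3110079O15Rik* at 2.04 lead at 2 weeks, *Col10a1* at 3.06 and *Cilp* at 2.48 at 10 weeks, and *Sox9* is filled on the left side at both ages.

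With age in the wild type, 5 of 35 further cartilage genes rose and 6 fell, against the 6.18% and 19.4% of all genes given above, and 10 rose and 3 fell with the length and GC trend removed. *Ucma* rose by 3.66 (adjusted p = 1.33e-06) and *3110079O15Rik* by 3.30 (adjusted p = 5.09e-05), and *Scrg1*, a gene first known from scrapie that chondrocytes express, fell by 3.50 (adjusted p = 7.7e-06). *Col11a1*, the partner chain of *Col11a2*, fell by 1.97 (adjusted p = 0.000131) and *Alpl*, of the alkaline phosphatase of mineralizing cartilage, by 2.21 (adjusted p = 0.000703), or by 1.43 with the trend removed. *Trps1* fell by 1.52, *Chst11* by 1.38 and *Papss2* by 1.04, of which none passed with the length and GC trend removed, and *Col11a1* did not either. In *Socs3* cKO 2 of the 35 genes, *Runx2* at 1.48 (adjusted p = 0.00415) and *Runx3* at 1.71 (adjusted p = 0.00879), rose with age and 0 fell in limma (2 had an unadjusted p under 0.05 in that direction), against 2.01% and 1.53% of all genes. Without *Socs3* cKO replicate 1 or 3 at 10 weeks, or replicate 3 or 4 at 2 weeks, neither rose, and without replicate 2 or 4 at 10 weeks 1 did.

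The change in genotype effect between the ages passed the interaction test in 11 of the 35 further cartilage genes, 8 of which were higher at 10 weeks and 3 lower, against 18% and 6.55% of all genes. *Ucma* (-3.79, adjusted p = 4.16e-05) and *3110079O15Rik* (-3.73, adjusted p = 0.000448), which rose at 2 weeks, were measured at 34.3, 37.7 and 48.0 FPKM and at 272, 173 and 569 FPKM in the wild type at 10 weeks, against 17.5, 18.9, 10.99 and 36.1 FPKM and 96.2, 52.2, 91.5 and 158 FPKM in *Socs3* cKO. At 10 weeks *Ucma* overlapped between the groups by a single *Socs3* cKO mouse. Of the genes with an interaction among all genes, 73.3% were higher as deposited, and 52.0%, 47.0% and 45.6% under median-of-ratios scaling, quantile normalization and removal of the trend. With the trend removed the cartilage genes numbered 4 higher and 6 lower.

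Among 20 C-type lectin genes, 16 were tested at each age, and their calls are to be read against the 7.24% rising and 7.19% falling of all genes at 2 weeks and 12.5% and 2.43% at 10 weeks. *Clec12b* (1.22, adjusted p = 0.00945) and *Clec2d* (1.11, adjusted p = 0.00932) rose and *Clec11a* (-1.14, adjusted p = 0.00948) fell at 2 weeks, and none of the 3 passed with the length and GC trend removed. At 10 weeks *Clec7a*, the gene of the beta-glucan receptor dectin-1 of myeloid cells (2.30, adjusted p = 0.00113), *Clec4a3* (1.31, adjusted p = 0.00877) and *Clec4n*, of dectin-2 (1.26, adjusted p = 0.0058), rose. *Clec3b*, the nearest relative of *Clec3a* and widely expressed, was measured at 129, 135, 148 and 123 FPKM in the wild type and at 52.6, 111, 114 and 80.7 FPKM in *Socs3* cKO at 2 weeks. At 10 weeks it was measured at 92.4, 117 and 76.6 FPKM and at 185, 146, 127 and 203 FPKM. All *Socs3* cKO mice lay below the wild type at 2 weeks, as in 33.2% of all genes tested, and above it at 10 weeks, as in 31.2%. Neither difference passed in limma, at -0.64 (adjusted p = 0.058) and 0.79 (adjusted p = 0.021).

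The labelled tissue was checked on its markers. Of the chondrocyte markers *Col2a1*, *Acan*, *Col9a1* and *Sox9* were present in each mouse, while *Matn1* was absent or near 0 in all. The 5 keratinocyte markers in the files summed to 5685 to 11960 FPKM over the 15 mice. Markers of bone were near 0, with 3 genes summing to at most 1.86 FPKM.

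Markers of other cell types of the ear were counted against the same shares of all genes. Of the 9 skeletal muscle markers, 6 rose at 2 weeks, and their summed FPKM of 1959 to 3662 in *Socs3* cKO compared with 762 to 1152 for the wild type. At 10 weeks 2 of them fell, with 491 to 876 FPKM in *Socs3* cKO and 1095 to 1882 FPKM for the wild type. Of 7 dermal fibroblast markers 1 rose and 3 fell at 2 weeks (14270 to 17290 against 6134 to 9649 FPKM), and 1 rose at 10 weeks (3955 to 6967 against 6997 to 12300 FPKM). Of 7 adipocyte markers 2 rose at each age, with sums of 226 to 261.5 and 416 to 823.5 FPKM at 2 weeks and 333 to 449.9 and 415 to 805 FPKM at 10 weeks. Of 5 macrophage markers 0 passed in limma at 2 weeks, 3 being higher at an unadjusted p under 0.05 (208 to 241 against 313 to 678 FPKM) and 4 rose at 10 weeks (260.5 to 431 against 606 to 1041 FPKM). Of 4 endothelial markers 0 passed at 2 weeks, 1 being lower at an unadjusted p under 0.05 (53.2 to 60.7 against 39.0 to 47.2 FPKM) and 3 rose at 10 weeks (11.3 to 14.4 against 28.5 to 37.6 FPKM). No marker of muscle, fibroblast, macrophage or endothelium was below 1 FPKM in every mouse of a group. Of the 4 tendon markers 1, *Kera*, rose at 10 weeks, of the 5 keratinocyte markers 1 rose at 2 weeks and 1 fell at 10 weeks, and of the 4 T cell markers tested 1 rose and 1 fell at 2 weeks and 1 rose at 10 weeks. With the length and GC trend removed, 8 muscle markers rose at 2 weeks, 1 fibroblast marker fell there, 2 macrophage markers and 1 endothelial marker rose at 10 weeks, and the rising fibroblast markers and the T cell markers no longer passed at either age. The part of these cell types in the values of the cartilage genes was not tested.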

How the data were processed

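Ear RNA was sequenced in 15 libraries as single reads of 50 bases, with groups and replicates as labelled. The authors aligned the reads to mm9 with TopHat2 (version 2.1.0, with Cufflinks also named in the submitters' processing notes) and deposited FPKM values for 21110 genes, 1 library per sample. Nothing in the labels says that the samples of a group came from separate mice, so p-values measure only the spread between these samples, which may be technical. Depth per library is not given in the sources used here. The study tested counts with edgeR, and counts were not used here.

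Values were analysed as log2(FPKM + 0.1) with limma (version 3.58.1, R 4.3.3) and a trend in the prior variance, keeping genes that reached an FPKM of 1 in 3 or more samples of the comparison. P-values were 2-sided and adjusted by the Benjamini-Hochberg method. A gene counted as a DEG where its adjusted p was below 0.01 and its |log2(FC)| reached 1. Genotype was fitted within each age, and age and the interaction on all 4 groups. Exact permutation tests were run with numpy 2.4.6 (Python 3.11.15), and Spearman's rho was computed with scipy 1.17.1. The limma step was tested on simulated data. Positions and transcript lengths came from a GENCODE annotation of mm9, and 92.1% of genes had a length and GC content. No pair of libraries shared more than 1 identical value above 0. *Bglap*, *Flg* and *Tcra* of the marker lists were not analysed here.

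The 10 genes, the lists and the tests were chosen with earlier results of these data known. All 10 genes are named, with up to 3 called genes of each list and comparison with the largest change, the 5 genes most like *Clec3a* by each measure, *Clec3b* and *Socs3*. The alternatives were pseudocounts of 1 and 0.01, no filter, scaling by median of ratios, quantile normalization, a block for the replicate number, one fit of all groups and leaving out each mouse. Removal of each library's trend with transcript length and GC content (a spline with 4 degrees of freedom) was chosen after seeing the data.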

Additional observations from a re-analysis of the deposited data

Results flagged for a closer look

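*Acan* in *Socs3* cKO replicate 1 at 2 weeks, at 3.40 FPKM against 29.8 to 32.2 FPKM in the other 3 mice, lay farther from its group than Dixon's 95% limit. Of the 28 groups of 4 mice tested for the 10 genes, this was the only 1, and chance alone marks about 1 in 20 groups.

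The genotype effect differed between the ages in the interaction test of limma for 11 of 35 further cartilage genes and 3 of 17 C-type lectins. Of all 13937 genes tested, 24.5% did so, 18% higher at 10 weeks and 6.55% lower. On the log2 scale, as the effect at 10 weeks minus that at 2 weeks, it was higher at 10 weeks in *Col11a1* (1.90), *Scrg1* (2.66), *Trps1* (1.70), *Runx2* (2.20), *Runx3* (2.53), *Alpl* (2.61), *Papss2* (1.36), *Chst11* (2.03), *Clec3b* (1.43) and *Clec11a* (1.603). It was lower in *3110079O15Rik* (-3.73), *Ucma* (-3.79), *Mia1* (-2.37) and *Clec2d* (-1.93). Adjusted p-values were 4.16e-05 to 0.00773. With the trend with transcript length and GC content removed, *Col11a1*, *Runx2*, *Runx3*, *Papss2*, *Chst11* and *Clec11a* no longer passed, and 8 of the 14 did.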

How the results depend on the processing

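Depth is not given, and the low values of *Clec3a* in the wild type at 10 weeks cannot be given a counting error. Pseudocounts of 1 and 0.01 each left 1 cartilage gene rising with age in *Socs3* cKO. Without the filter 0 further cartilage genes fell at 10 weeks in limma. Median-of-ratios scaling turned the log2 difference of *Col9a1* at 2 weeks to 0.043 and gave 2 falling at 10 weeks. In the permutation test that log2 difference was 0.027. Quantile normalization gave 7 rising and 4 falling at 2 weeks, 2 falling at 10 weeks, 3 falling with age in the wild type and 5 higher in the interaction. With all groups in one fit, 3300 genes were called at 2 weeks, 7 further cartilage genes fell there and 2 at 10 weeks, and 1 of the 10 genes rose, as *Clec3a* kept 2.09 with an adjusted p of 0.021.

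With the trend with length and GC content removed, genes called numbered 1274 at 10 weeks and 2304 for age in the wild type. Further cartilage genes rising and falling numbered 9 and 5 at 2 weeks, 10 and 3 with age in the wild type, and 4 and 6 in the interaction. Of the 10 genes 1 fell at 2 weeks. At 2 weeks the log2 difference turned to 0.39 in *Acan*, -0.070 in *Hapln1* and 0.57 in *Col9a1*. In the permutation test these log2 differences were 0.38, -0.042 and 0.56. *Acan* turned to 0.34 for age in the wild type and *Col11a2* to -0.19 for age in *Socs3* cKO, and *Clec3a* relative to the other genes at 2 weeks was 1.30.

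Same-numbered mice of the genotypes did not deviate together (r between -0.057 and 0.057 in the younger mice, and between -0.20 and 0.036 in the older). No pairing by replicate number was seen, although so few pairs cannot exclude one. With the replicate block 751 genes were called at 2 weeks, 2 further cartilage genes rose and 1 fell, 3 fell at 10 weeks and 1 rose with age in *Socs3* cKO, while *Clec3a* at 2 weeks stayed at 2.09 (adjusted p = 0.00369).

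With each mouse left out in turn, genes called ranged from 859 to 3348 at 2 weeks, 745 to 2665 at 10 weeks, 2205 to 3826 for age in the wild type, 300 to 700 for age in *Socs3* cKO and 1959 to 4843 in the interaction. Further cartilage genes rising ranged from 1 to 9, 3 to 8, 4 to 5, 0 to 2 and 6 to 11, and falling from 1 to 6, 0 to 2, 4 to 6, 0 to 0 and 2 to 4, in the same order. Of the 10 genes, 1 to 3 rose and 1 to 2 fell at 2 weeks. The median r to *Clec3a* ranged from 0.21 to 0.57, and *Clec3a* relative to the other genes from 2.35 to 2.87 at 2 weeks and 3.63 to 5.61 at 10 weeks. Without *Socs3* cKO replicate 1 at 2 weeks, *Acan* turned to 0.038 and *Col9a1* to 0.28 at 2 weeks, and *Col11a2* to -0.38 for age in *Socs3* cKO, in ranges of -1.03 to 0.038, -0.55 to 0.28 and -0.38 to 1.11. *Col2a1*, with a range of -0.48 to 0.42 for age in *Socs3* cKO, turned to 0.084, 0.33 and 0.42 without *Socs3* cKO replicates 2 and 3 at 2 weeks and replicate 2 at 10 weeks. The cause of these changes was not tested.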
